A study of Mus musculus with 36 samples.

Results

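The 10 genes described here encode matricellular proteins and their close partners in the extracellular matrix: Postn, Sparc, Spp1, Tnc, Thbs1, Thbs4, Comp, Cilp, Ccn2 and Fn1. They were chosen by gene symbol from the 25626 genes listed in the deposited table, and each symbol matched 1 row. RNA from the whole hearts of 36 mice was sequenced in 6 groups of 6, and the stated purpose was to look for pathways by which mitochondrial reactive oxygen species may worsen heart muscle disease in cSirt4-Tg mice. Transverse aortic constriction (TAC) narrows the aortic arch and puts the left ventricle under pressure, and sham surgery leaves the aorta open. MitoQ (MQ) is a ubiquinone derivative that gathers in mitochondria and scavenges oxidants there.

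The groups were Tg-TAC-MQ (genotype cSirt4-Tg, TAC, MitoQ), Con-TAC-MQ (genotype Control, TAC, MitoQ), Tg-TAC (cSirt4-Tg, TAC, vehicle), Con-TAC (Control, TAC, vehicle), Tg-Sham (cSirt4-Tg, sham surgery, vehicle) and Con-Sham (Control, sham surgery, vehicle). There was no sham group on MitoQ. What drives the transgene, the strain, sex and age of the mice, the dose of MitoQ and the time from surgery to excision were not stated in the labels. Sirt4, which codes for a mitochondrial sirtuin, was not called different by limma between the genotype labels: it averaged 349 ± 22.5 normalized counts in Tg-TAC-MQ against 353 ± 18.6 in Con-TAC-MQ, 362 ± 57.8 in Tg-TAC against 341 ± 49.6 in Con-TAC, and 377 ± 48 in Tg-Sham against 412 ± 96.6 in Con-Sham (SD, n = 6 each). These counts do not check the genotype labels, whose names are used throughout. The libraries held 14834719 to 60010648 reads in the listed genes, and nothing in the labels says that 2 libraries came from 1 heart.

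Matricellular proteins are secreted into the matrix but, unlike collagens, mainly act on cells and on matrix assembly: they bind integrins, growth factors and collagen fibrils. In the adult heart their genes are kept at a low level and are switched on with injury or overload, largely in fibroblasts that turn into myofibroblasts. Postn and Sparc help collagen fibrils to form and cross-link, Spp1 (osteopontin), Tnc (tenascin C) and Fn1 (fibronectin) are ligands of integrins, Thbs1, Thbs4 and Comp are thrombospondins, Ccn2 (CTGF) is a cofactor of transforming growth factor beta (TGF-beta) signalling, and Cilp is a matrix protein that binds and restrains TGF-beta.

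Promoter sequences are shown for Postn, Thbs4 and Cilp, because these were the 3 genes called higher after TAC in both genotypes. Each line is the 250 bases before the annotated start, from RefSeq (build GRCm38.p6; Postn chr3:54360857-54361106, plus strand; Thbs4 chr13:92794819-92795068, minus strand; Cilp chr9:65264930-65265179, plus strand), 5′ to 3′ on the strand of the gene, and capitals mark TATAAA (the TATA box) and GGAATG (a site of TEAD factors) on either strand.
Postn: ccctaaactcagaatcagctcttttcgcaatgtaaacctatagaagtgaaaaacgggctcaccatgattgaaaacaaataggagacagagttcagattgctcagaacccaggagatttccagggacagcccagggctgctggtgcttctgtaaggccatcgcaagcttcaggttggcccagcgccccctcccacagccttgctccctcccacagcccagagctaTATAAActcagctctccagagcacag
Thbs4: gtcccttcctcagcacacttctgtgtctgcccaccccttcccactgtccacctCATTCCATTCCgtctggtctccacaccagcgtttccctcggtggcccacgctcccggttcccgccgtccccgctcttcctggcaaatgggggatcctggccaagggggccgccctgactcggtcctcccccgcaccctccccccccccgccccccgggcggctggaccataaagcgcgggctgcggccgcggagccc
Cilp: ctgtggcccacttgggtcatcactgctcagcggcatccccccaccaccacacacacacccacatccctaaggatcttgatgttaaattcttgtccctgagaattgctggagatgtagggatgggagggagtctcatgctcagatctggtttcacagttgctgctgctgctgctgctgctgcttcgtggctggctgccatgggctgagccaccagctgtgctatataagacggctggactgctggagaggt
In Postn the TATAAA starts 26 bases before the start, and it was found in the same length of 12.4% of 32851 promoters. Thbs4 holds 2 copies of GGAATG on the opposite strand, which share 1 base, beginning 197 and 192 bases before the start, and 12.6% of promoters hold at least 1. Cilp holds neither of these exact strings. Its line reads tatataag near the end, which the search for the letters TATAAA does not count. Other forms of the TATA box were not searched, so Cilp is not said to lack one. Of the 10 genes, 6 had a promoter in the RefSeq table (Postn, Sparc, Spp1, Tnc, Thbs4 and Cilp). TGANTCA, the AP-1 site, was in 0 of the 6 and in 6.75% of all promoters. CAGACA, a SMAD-type site, was in Sparc, Spp1 and Thbs4 and in 17.1% of all promoters. GGGCGG, the GC box, was in Tnc and Thbs4 and in 32.7%, and TATAAA was also in Spp1 and Tnc. Every motif was searched on both strands, and a match describes letters, not bound factors.

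Several hearts stood apart from their groups in these genes. Tg-TAC 6 was the lowest of its group in 10 of 10 genes, and its mean log2 level over the Con-Sham mean was 0.12, against 3.25 to 4.69 in the other 5 Tg-TAC hearts. No gene in Tg-TAC 6 was above every Tg-Sham heart, and 1 was above every Con-Sham heart. Its Nppa, the atrial natriuretic peptide gene that rises under load, was at 3535 normalized counts. The other Tg-TAC hearts held 94193 to 245197, Tg-Sham 9398 to 38011 and Con-Sham 4266 to 7403. Its Nppb, a related load gene, was at 10169, above Con-Sham (4009 to 5951) and within Tg-Sham (8053 to 14980). Its Acta1 (9532) and Myh7 (20150) lay within the Con-Sham ranges (3483 to 10127 and 15540 to 32553). These load genes were chosen after their values were seen. Con-TAC 6 was the highest of its group in 10 of 10 genes (4.22, against 0.14 to 2.54 in the other Con-TAC hearts), Con-TAC 5 was the lowest in 9, Con-TAC-MQ 3 was the highest in 9 (4.07, against 0.32 to 1.75), and Con-TAC-MQ 2 was the lowest in 8. Con-TAC 6 also stood apart in markers of other tissue: its mean log2(value + 1) over 5 atrial markers was 7.50, against 3.83 to 5.59 in the other Con-TAC hearts, and over 8 tendon, valve and cartilage markers 6.67, against 2.24 to 4.05. Its cardiomyocyte markers had the lowest sum of the Con-TAC hearts. Con-TAC-MQ 5, the heart of its group with the most Comp, had the highest atrial mean of all hearts. It was 10.41, against 3.79 to 5.59 in the other Con-TAC-MQ hearts. Its tendon, valve and cartilage mean was 5.32, against 2.75 to 3.69. Tg-TAC-MQ 4 had an atrial mean of 8.36, against 4.60 to 5.79 in the other Tg-TAC-MQ hearts. The part of such tissue in the levels of these hearts was not tested. Results that rest on Tg-TAC 6, Con-TAC 6 or Con-TAC-MQ 3 are given with and without them.

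Each library name holds a number that the labels do not explain. All 12 MitoQ hearts had 20 or 21, and so did Con-TAC 6 (20). The other 5 Con-TAC and 5 Tg-TAC hearts had 7 to 12, Tg-TAC 6 had 29, and sham hearts had 9 to 14 or 29 to 31. The number and MitoQ therefore cannot be told apart in cSirt4-Tg hearts, where no vehicle TAC heart carried 20 or 21, and rest on 1 vehicle heart in controls. Mitochondrially encoded genes took 13.1% to 27.9% of reads. Scaling to the total outside the mitochondrial genome shifted the median log2 difference of all genes. The shift was 0.10 in Con-TAC against Con-Sham and in Tg-TAC-MQ against Tg-TAC, and less in the other comparisons. Under that scaling, 4 of the 10 genes were called for TAC in controls (1111 over all genes) and 5 for TAC in cSirt4-Tg (2414). The genotypes gave 0 at sham (200), 1 after TAC (822) and 0 on MitoQ (16). MitoQ gave 0 in controls (812) and 4 in cSirt4-Tg (3280). Of the calls over all genes, 83.6% were higher for TAC in controls (against 49.9% as deposited). For MitoQ, 85.3% were higher in cSirt4-Tg hearts (against 57.1%) and 84.6% in controls (against 59.5%).

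**Figure D1:**
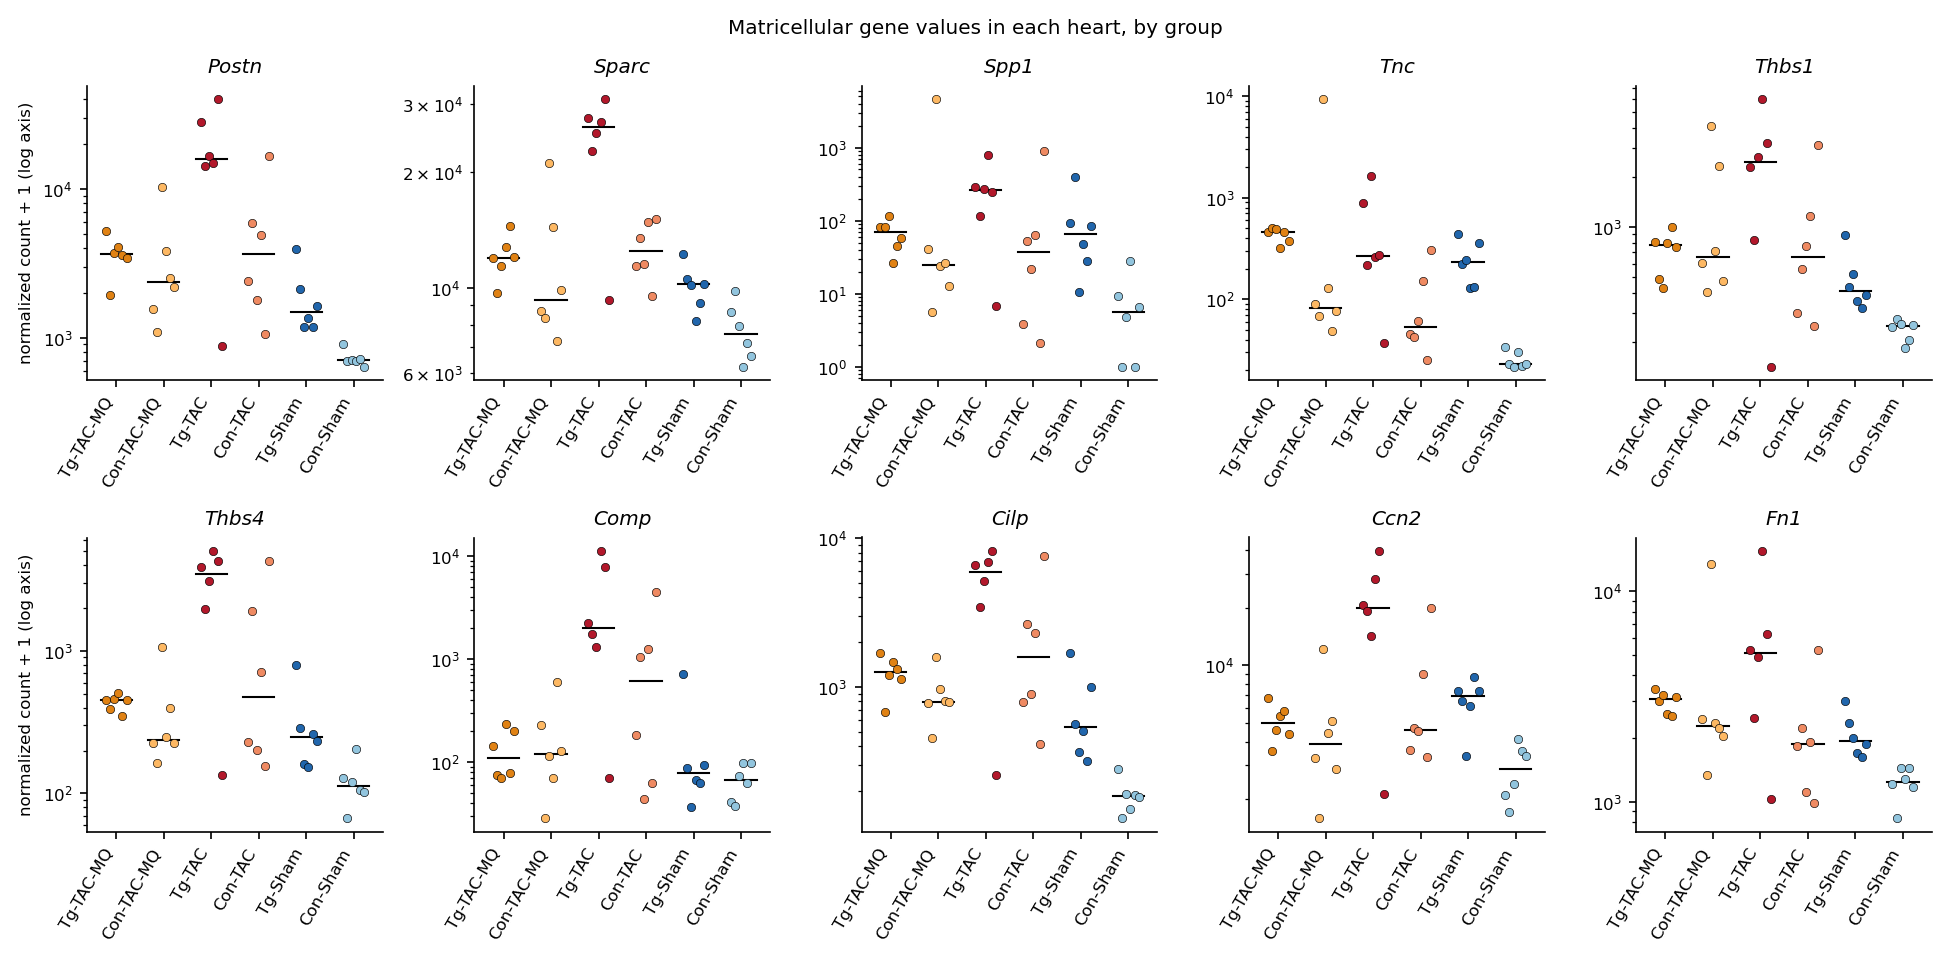
Normalized count plus 1 on a log axis for the 10 genes, 1 point per heart and 6 hearts per group, with bars at the medians. The lowest of the Tg-TAC points is heart 6 in every panel, and in Con-TAC the highest point is Con-TAC 6 in every panel.

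Levels were compared between genes as the group median of normalized counts per kilobase of exon. In Tg-TAC, Ccn2 (6972) and Sparc (6881) were highest, followed by Postn (1822), Cilp (1387), Thbs4 (1057), Comp (678), Fn1 (434), Thbs1 (409), Spp1 (156) and Tnc (34.3). The ranges of neighbours in that order overlapped over the 6 hearts. In Con-Sham the order was Sparc (2000.0), Ccn2 (1006), Fn1 (107), Postn (80.9), Cilp (43), Thbs1 (41.1), Thbs4 (34.1), Comp (22.3), Tnc (2.83) and Spp1 (2.81). There, Sparc and Ccn2, Ccn2 and Fn1, Postn and Cilp, and Comp and Tnc did not overlap, whereas the other neighbours did. Postn, Cilp, Thbs4 and Comp thus ranked above Fn1 in Tg-TAC and below it in Con-Sham.

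The fibril-assembly genes are given first, as the lowest, median and highest normalized count of the 6 hearts. Postn (periostin; ENSMUSG00000027750, mm39 chromosome 3, 54268530 to 54298458) was at 871, 15856 and 39954 in Tg-TAC hearts, against 1175, 1493 and 3947 in Tg-Sham hearts. It was at 1051, 3671 and 16577 in Con-TAC hearts, against 636, 704 and 898 in Con-Sham hearts. With MitoQ it was at 1942, 3655 and 5204 in Tg-TAC-MQ and 1094, 2348 and 10322 in Con-TAC-MQ. Con-Sham was the tightest group and lay below every Con-TAC and every Tg-Sham heart, while Tg-TAC and Tg-Sham overlapped only through Tg-TAC 6. Sparc (osteonectin; ENSMUSG00000018593, mm39 chromosome 11, 55285326 to 55314009), which binds collagen and supports its processing, was at 9296, 26066 and 30789 in Tg-TAC, against 8184, 10197 and 12202 in Tg-Sham. In controls it was at 9498, 12469 and 15089.8 in Con-TAC, against 6238, 7576 and 9817 in Con-Sham. Tg-TAC-MQ held 9676, 11954 and 14467 and Con-TAC-MQ 7294, 9299 and 21071. Sparc varied least of the 10 in both vehicle TAC groups: its highest heart was 1.59 times its lowest in Con-TAC and 3.31 times in Tg-TAC, against 15.8 and 45.9 times for Postn.

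Among the integrin ligands, Tnc separated the sham genotypes. Tnc (ENSMUSG00000028364, mm39 chromosome 4, 63878022 to 63965252), which loosens cell contacts with the matrix and is largely silent in the adult heart, was at 127, 230.1 and 438 in Tg-Sham, against 20.7, 22 and 33.2 in Con-Sham. After TAC it was at 35.8, 267 and 1651 in Tg-TAC, against 24.1, 52.4 and 308 in Con-TAC, and with MitoQ at 322, 456 and 497 in Tg-TAC-MQ, against 47.8, 81.5 and 9287 in Con-TAC-MQ. Every Tg-Sham heart was above every Con-Sham heart, and every Tg-TAC-MQ heart was above every Con-TAC-MQ heart other than Con-TAC-MQ 3, whose 9287 was the highest value of all 36 hearts. Spp1 (ENSMUSG00000029304, mm39 chromosome 5, 104582984 to 104588916), a cytokine-like ligand made by macrophages and fibroblasts, was at 9.51, 65.5 and 391 in Tg-Sham, against 0, 4.63 and 26.6 in Con-Sham. It had 0 reads in 2 hearts, Con-Sham 2 and Con-Sham 5. Its range was 5.78 to 779.6 in Tg-TAC, 1.1 to 888 in Con-TAC, 25 to 114 in Tg-TAC-MQ and 4.57 to 4556 in Con-TAC-MQ, and all 4 of these ranges overlapped. Fn1 (ENSMUSG00000026193, mm39 chromosome 1, 71624679 to 71692359), the scaffold that other matrix proteins assemble on, ranged over 1036 to 15571 in Tg-TAC, 981 to 5271 in Con-TAC, 1639 to 3025 in Tg-Sham and 835 to 1451 in Con-Sham. It ranged over 2564 to 3437 in Tg-TAC-MQ and 1336 to 13427 in Con-TAC-MQ, where the next heart below Con-TAC-MQ 3 was at 2486.

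Of the thrombospondins, Thbs4 (ENSMUSG00000021702, mm39 chromosome 13, 92888098 to 92931326), which in mouse heart is induced by pressure load, was at 133, 3478 and 5032 in Tg-TAC hearts, against 152, 247 and 795 in Tg-Sham hearts. Control hearts held 155, 472 and 4299.9 in Con-TAC, against 66, 112 and 204 in Con-Sham. The MitoQ groups held 347, 452 and 504 in Tg-TAC-MQ and 161, 236 and 1059 in Con-TAC-MQ. In 5 of 6 Tg-TAC hearts Thbs4 was thus above all Tg-TAC-MQ hearts. Comp (cartilage oligomeric matrix protein, also named thrombospondin 5; ENSMUSG00000031849, mm39 chromosome 8, 70826208 to 70834716), a collagen organizer of cartilage and tendon, was at 68.2, 2013 and 11325 in Tg-TAC, against 35.7, 76.6 and 715 in Tg-Sham. It was at 42.9, 619 and 4536 in Con-TAC, against 36.3, 66.1 and 97.1 in Con-Sham. With MitoQ the values were 69.1, 109 and 231 in Tg-TAC-MQ and 27.4, 119.7 and 601 in Con-TAC-MQ. The 3 Con-TAC hearts with the most Comp (Con-TAC 2, 4 and 6) were also those with the most Postn, Thbs4 and Cilp. Thbs1 (ENSMUSG00000040152, mm39 chromosome 2, 117942357 to 117957614), which activates latent TGF-beta and inhibits vessel growth, ranged over 141 to 5937 in Tg-TAC, 249.9 to 3131 in Con-TAC, 322 to 899 in Tg-Sham and 184 to 277 in Con-Sham. With MitoQ it ranged over 424 to 1002 in Tg-TAC-MQ and 400.3 to 4111 in Con-TAC-MQ.

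Of the 2 genes tied to TGF-beta signalling, Cilp (ENSMUSG00000042254, mm39 chromosome 9, 65172462 to 65187887) was at 253, 5899 and 8228 in Tg-TAC, against 315, 534 and 1682 in Tg-Sham. Its values were 410.0, 1592 and 7584 in Con-TAC, against 129.8, 183 and 280.0 in Con-Sham. MitoQ-treated hearts held 679, 1258 and 1701 in Tg-TAC-MQ and 452, 791 and 1593 in Con-TAC-MQ. No Con-Sham heart reached the lowest Cilp of Con-TAC, Con-TAC-MQ, Tg-TAC-MQ or Tg-Sham, and the lowest Tg-TAC heart (Tg-TAC 6) lay inside the Con-Sham range. Ccn2 (ENSMUSG00000019997, mm39 chromosome 10, 24471340 to 24474581) was at 2137, 19946 and 39669.5 in Tg-TAC, against 3357, 6919.6 and 8739 in Tg-Sham. It was at 3315, 4602 and 19860.2 in Con-TAC, against 1722, 2877 and 4132 in Con-Sham, and at 3579, 5026 and 6779.9 in Tg-TAC-MQ and 1589, 3863 and 12138 in Con-TAC-MQ. For Ccn2 all 6 Tg-TAC-MQ hearts lay within the Tg-Sham range and below every Tg-TAC heart other than Tg-TAC 6.

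**Figure D2:**
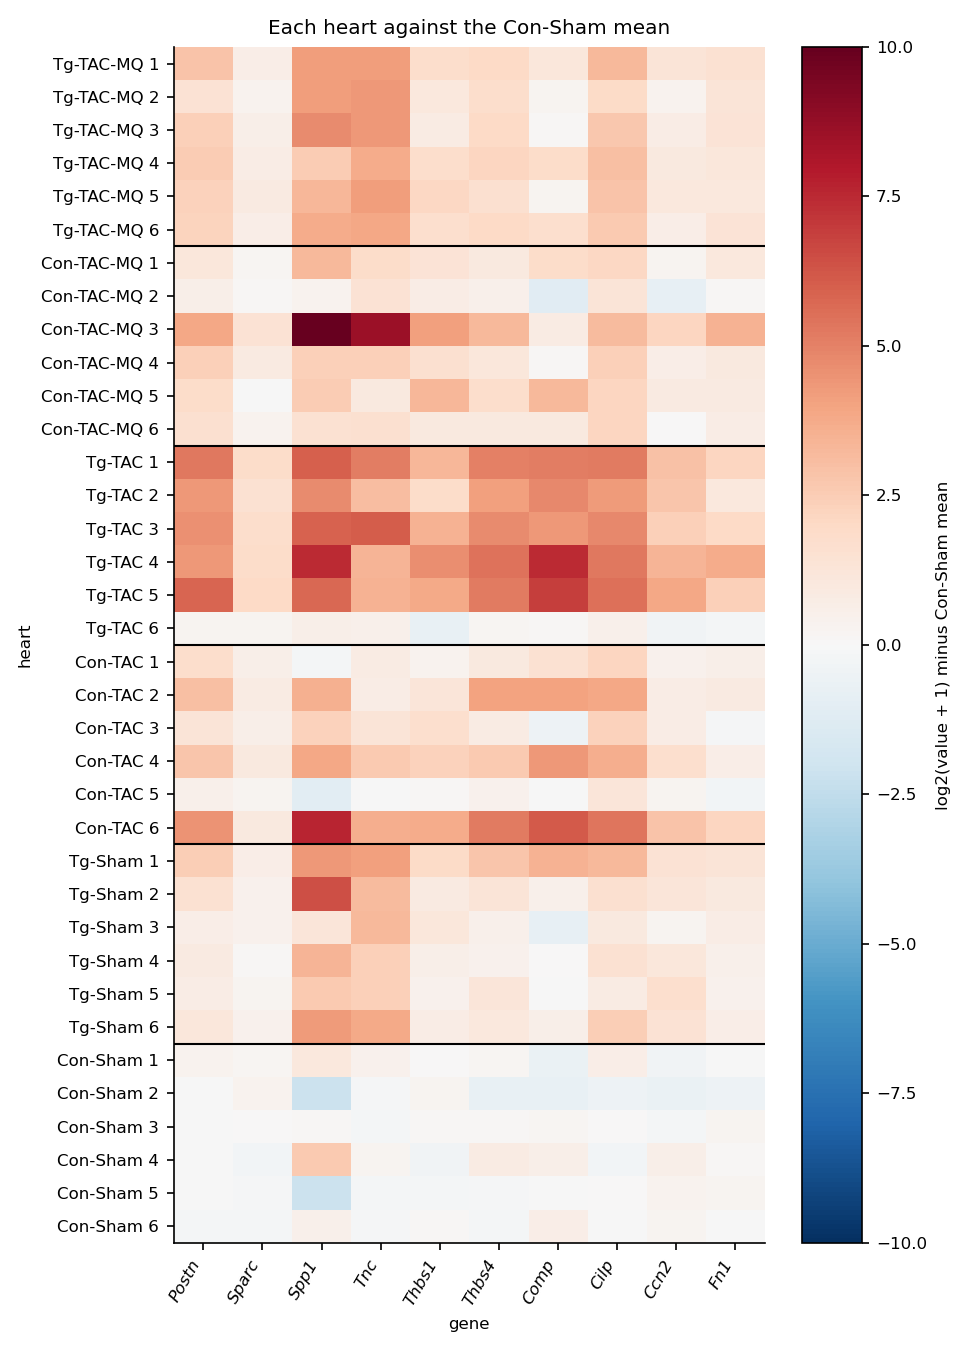
Each row is a heart and each column a gene, coloured by log2(value + 1) minus the Con-Sham mean of that gene. Rows change together across the 10 columns: Tg-TAC 6 and Con-TAC 5 are pale in nearly every column, whereas Con-TAC 6 is the darkest Con-TAC heart in every column, though by little in Sparc (0.98, against 0.95 in Con-TAC 4), and Con-TAC-MQ 3 is the darkest of its group in 9, most of all in Spp1 and Tnc.

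Differences between groups were tested with limma on log2(value + 1) in 1 fit of all 36 hearts over the 16275 genes that reached 10 normalized counts in 6 or more hearts, and called at an adjusted p under 0.05. All 10 genes passed that filter. In cSirt4-Tg hearts, TAC raised 5 of the 10 (Postn, Sparc, Thbs4, Comp and Cilp) and lowered none, where 16.7% of all genes were called in either direction and 7.91% were called higher. Comp rose most (Tg-TAC against Tg-Sham log2 4.18, SE 1.00, adjusted p = 0.00571 by limma). Thbs4 rose by log2 2.93, SE 0.71, adjusted p = 0.00628, Postn by log2 2.84, SE 0.64, adjusted p = 0.00401, Cilp by log2 2.49, SE 0.62, adjusted p = 0.00746 and Sparc by log2 1.15, SE 0.22, adjusted p = 0.00114. In each of these 5 genes, 5 of 6 Tg-TAC hearts were above the Tg-Sham mean. The other 5 differences were also positive but not called: Thbs1 1.77 (adjusted p = 0.0542), Ccn2 1.29 (adjusted p = 0.0679), Fn1 1.07 (adjusted p = 0.103), Spp1 1.35 and Tnc 0.43. In whole-heart RNA, more cells of a type and more RNA per cell cannot be told apart.

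The 5 calls held in each of the 12 fits that left out 1 heart, and without Tg-TAC 6 the count was 8 of 10, with 28.3% of all genes called. Thbs1 (log2 2.46, adjusted p = 0.00124), Ccn2 (log2 1.86, adjusted p = 0.000965) and Fn1 (log2 1.48, adjusted p = 0.00917) were then called as well. Among the hearts named 7 to 14, 5 Tg-TAC and 3 Tg-Sham, 7 genes were called, with 17.5% of all genes, and Postn differed by log2 3.29, adjusted p = 0.00179. A fit of the 12 Tg-TAC and Tg-Sham hearts alone called 2 of the 10, with 4.37% of all genes, while edgeR and DESeq2 on all hearts each called 8, with 16.5% and 19.2% of all genes.

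In control hearts, TAC raised 3 of the 10, Cilp, Thbs4 and Postn, and lowered none, where 5.3% of all genes were called in either direction and 2.65% higher. Cilp rose by log2 3.09, SE 0.62, adjusted p = 0.00618 by limma, and every Con-TAC heart was above every Con-Sham heart. Postn, whose groups did not overlap either, rose by log2 2.32, SE 0.64, adjusted p = 0.0333, and Thbs4 by log2 2.36, SE 0.71, adjusted p = 0.0456, with all 6 Con-TAC hearts above the Con-Sham mean. Groups did not overlap in 3.66% of all genes. Sparc missed the threshold at log2 0.70, SE 0.22, adjusted p = 0.0504. The other differences were positive and not called, from Spp1 at 2.67 (SE 1.33) and Comp at 2.58 (SE 1.00) to Fn1 at 0.64 (SE 0.46). Rn18s-rs5, a ribosomal RNA gene, took 1.55% to 2.27% of reads in the Con-TAC hearts other than Con-TAC 2 (9.22%). Every Con-Sham heart held more than those hearts, from 3.499% up. The part of such library make-up in the differences with TAC in controls was not tested.

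Only the Cilp call held in all 12 fits without 1 heart (adjusted p at most 0.0263). Without Con-TAC 2, 4 or 6 or Con-Sham 3, 4, 5 or 6, Cilp alone was called. Among the hearts named 7 to 14, 5 Con-TAC and 3 Con-Sham, none of the 10 was called by limma (0.147% of all genes were), with Cilp at log2 2.55, adjusted p = 0.0997 and Postn at log2 1.80, adjusted p = 0.151. On the recovered reads, edgeR called 6 of the 10 and DESeq2 8, where they called 5.68% and 8.84% of all genes.

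The TAC effect was not shown to differ between genotypes. In limma's test of the genotype by TAC interaction 0 of the 10 genes were called, 0 had an unadjusted p under 0.05 (5.83% of all genes did), and 0.0% of all genes were called. edgeR and DESeq2 also called 0 of the 10, with 0.0% and 0.0123% of all genes. Of the 7 positive interactions that of Comp was the largest (log2 1.60, SE 1.41, adjusted p = 0.903), and those of Spp1 (-1.32, SE 1.89), Tnc (-1.08, SE 1.21) and Cilp (-0.59, SE 0.88) were negative.

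Between sham hearts, all 10 genes were higher in Tg-Sham on average and none was called by limma, where 0.873% of all genes were called. At an unadjusted p under 0.05 there were 4 of the 10 and 13.1% of all genes. Of the 10, edgeR called 0 and DESeq2 2, where they called 0.602% and 1.97% of all genes. Tnc differed most by its test (log2 3.18, SE 0.86, adjusted p = 0.0658, 6 of 6 Tg-Sham hearts above the Con-Sham mean), followed by Cilp (log2 1.76, SE 0.62, adjusted p = 0.179), Spp1 (log2 3.73, SE 1.33, adjusted p = 0.188) and Ccn2 (log2 1.20, SE 0.49, adjusted p = 0.277). In Tnc, Postn, Thbs1, Cilp and Fn1 every Tg-Sham heart was above every Con-Sham heart, which was so in either direction in 3.89% of all genes. The fit of all groups uses 1 estimate of the spread for each gene, and in a fit of the 12 sham hearts alone 7 of the 10 were called, with 5.4% of all genes. With the hearts named 7 to 14 alone, 3 against 3, none of the 10 was called and 0.147% of all genes were.

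After TAC, all 10 genes were again higher in Tg-TAC than in Con-TAC on average, and limma called 1, Sparc (log2 0.84, SE 0.22, adjusted p = 0.0249, 5 of 6 Tg-TAC hearts above the Con-TAC mean), where 6.48% of all genes were called. Comp differed by log2 2.23, SE 1.00, adjusted p = 0.151, Spp1 by log2 2.41, SE 1.33, adjusted p = 0.247, Tnc by log2 2.10, SE 0.86, adjusted p = 0.116 and Postn by log2 1.77, SE 0.64, adjusted p = 0.0776. The remaining differences lay between 1.15 (Thbs1) and 1.77 (Thbs4). Tg-TAC and Con-TAC hearts overlapped in each of the 10 genes, and groups did not overlap in 0.971% of all genes. Rn18s-rs5 took 2.38% to 11.8% of reads in Tg-TAC. Every Tg-TAC heart was above every Con-TAC heart other than Con-TAC 2 (9.22%) in that share. Its part in the differences between genotypes after TAC was not tested.

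The count for the genotypes after TAC moved more with single hearts than that of the other 6 comparisons. Without Tg-TAC 6, 9 of the 10 genes were called, with 22.4% of all genes, and Postn differed by log2 2.54, adjusted p = 0.001, Comp by log2 3.17, adjusted p = 0.0131 and Cilp by log2 1.92, adjusted p = 0.00575. Without Con-TAC 6, 7 were called, with 17.3% of all genes. Without Tg-TAC 1, 4 or 5 or Con-TAC 1, 3 or 5, none was called by limma, and Sparc then had an adjusted p of at most 0.0767. Among the 5 Tg-TAC and 5 Con-TAC hearts named 7 to 14, which leaves out both Tg-TAC 6 and Con-TAC 6, 10 of 10 were called, with 25.2% of all genes, from Sparc at log2 1.14, adjusted p = 2.57e-05 to Spp1 at log2 4.29, adjusted p = 0.0114. Leaving out 4 hearts that an earlier analysis doubted (Con-Sham 2, Con-TAC-MQ 5, Tg-TAC 4, Tg-TAC 6) gave 7 calls, with 14.1% of all genes, and a fit with a term for the range of the number (7 to 14, 20 to 21 or 29 to 31) gave 9, with 20.4%. A fit of the 12 Tg-TAC and Con-TAC hearts alone called 0 of the 10, but it called 1 gene in all (0.00614%). With all hearts, edgeR called 1 and DESeq2 4, with 6.46% and 10.8% of all genes.

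**Figure D3:**
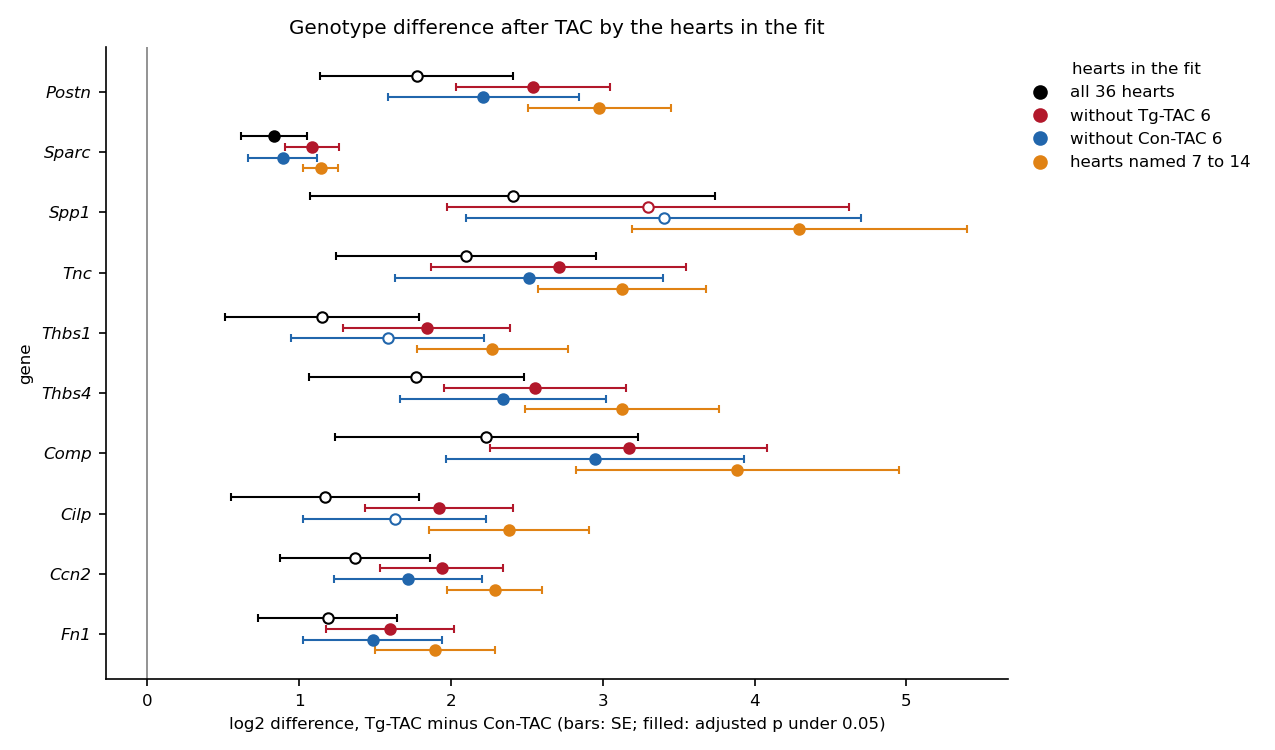
Log2 difference between Tg-TAC and Con-TAC with its SE for each gene, in 4 sets of hearts (colours), filled where the adjusted p is under 0.05. With all 36 hearts only Sparc is filled, and among the hearts named 7 to 14 all 10 are.

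In cSirt4-Tg hearts under TAC, 5 of the 10 genes were lower with MitoQ (Comp, Thbs4, Postn, Ccn2 and Sparc) and none was higher, where 17.3% of all genes were called in either direction and 7.44% lower. Comp fell most in Tg-TAC-MQ against Tg-TAC (limma log2 -3.92, SE 1.00, adjusted p = 0.00753). Thbs4 fell (limma log2 -2.22, SE 0.71, adjusted p = 0.0286), as did Postn (log2 -1.81, SE 0.64, adjusted p = 0.0463), Ccn2 (log2 -1.63, SE 0.49, adjusted p = 0.022) and Sparc (log2 -0.90, SE 0.22, adjusted p = 0.00515), with 6 of 6 Tg-TAC-MQ hearts below the Tg-TAC mean in each. Cilp, which TAC raised in the same genotype, had a difference of -1.53 (adjusted p = 0.0836), and Thbs1, Spp1 and Fn1 had -1.18, -1.30 and -0.53. Tnc alone had a positive difference, 0.48 (SE 0.86), which became negative without Tg-TAC 6, without the 4 doubted hearts, with a term for the number in the names, in edgeR and in DESeq2.

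The MitoQ-treated cSirt4-Tg hearts still stood above control sham hearts in most of the 10 genes. Each Tg-TAC-MQ heart was above every Con-Sham heart in 7 to 10 genes and above every Tg-Sham heart in 1 to 4. The group was also the most even after TAC, with heart means of 1.69 to 2.28 on the log2 scale over Con-Sham. All 6 of these hearts had 20 or 21 in their names and no Tg-TAC heart did, so the number and the treatment cannot be told apart. A sign of library make-up moved with the treatment too: Rn18s-rs5, a ribosomal RNA gene, took 0.591% to 1.33% of reads in Tg-TAC-MQ, against 2.38% to 11.8% in Tg-TAC, and 0.636% to 1.39% in Con-TAC-MQ, against 1.55% to 9.22% in Con-TAC, without overlap in either pair. Its part in the differences with MitoQ was not tested. Comp and Sparc were called in all 12 fits without 1 heart, Ccn2 in 10, Thbs4 in 7 and Postn in 1, the fit without Tg-TAC 6. The count was 2 without Tg-TAC 4 or 5, 3 without Tg-TAC 1, Tg-TAC 3 or Tg-TAC-MQ 2, and 7 without Tg-TAC 6, with 27.3% of all genes. In a fit of the 12 hearts compared 2 were called, with 13.6% of all genes, and edgeR and DESeq2 each called 7, with 18.1% and 21.0%.

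In control hearts under TAC, none of the 10 genes was called with MitoQ by limma, where 3.23% of all genes were, and 0 had an unadjusted p under 0.05, where 18.8% of all genes did. Of the 10, edgeR called 1 and DESeq2 2, with 2.7% and 5.08% of all genes. Differences ran from Comp at -1.60 (SE 1.00) and Thbs4 at -0.94 (SE 0.71) to Spp1 at 0.66 (SE 1.33) and Tnc at 1.27 (SE 0.86). Without Con-TAC-MQ 3, Tnc was at 0.12 and Spp1 at -0.67. Fn1 was then at 0.12, and at 0.57 with all hearts. Without Con-TAC 6, Comp was at -0.88. Cilp was then at -0.42, and at -0.88 with all hearts.

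The MitoQ effect was not shown to differ between genotypes. For the genotype by MitoQ interaction limma called 0 of the 10 genes and 0.0% of all genes, and edgeR and DESeq2 called 0 of the 10, with 0.0% and 0.0983% of all genes. Of the 10, 1 had an unadjusted p under 0.05, Sparc (limma log2 -0.69, SE 0.31, adjusted p = 0.574), as did 8.46% of all genes. All 10 interactions were negative, from Comp at -2.32 (SE 1.41) to Cilp at -0.64 (SE 0.88). Between Tg-TAC-MQ and Con-TAC-MQ, limma, edgeR and DESeq2 called 0 of the 10, and 0.0737%, 0.0676% and 0.166% of all genes. None of the 10 had an unadjusted p under 0.05, where 4.11% of all genes did. Tnc differed most in that comparison (log2 1.30, SE 0.86, adjusted p = 1), and without Con-TAC-MQ 3 by log2 2.45, adjusted p = 0.0674.

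**Figure D4:**
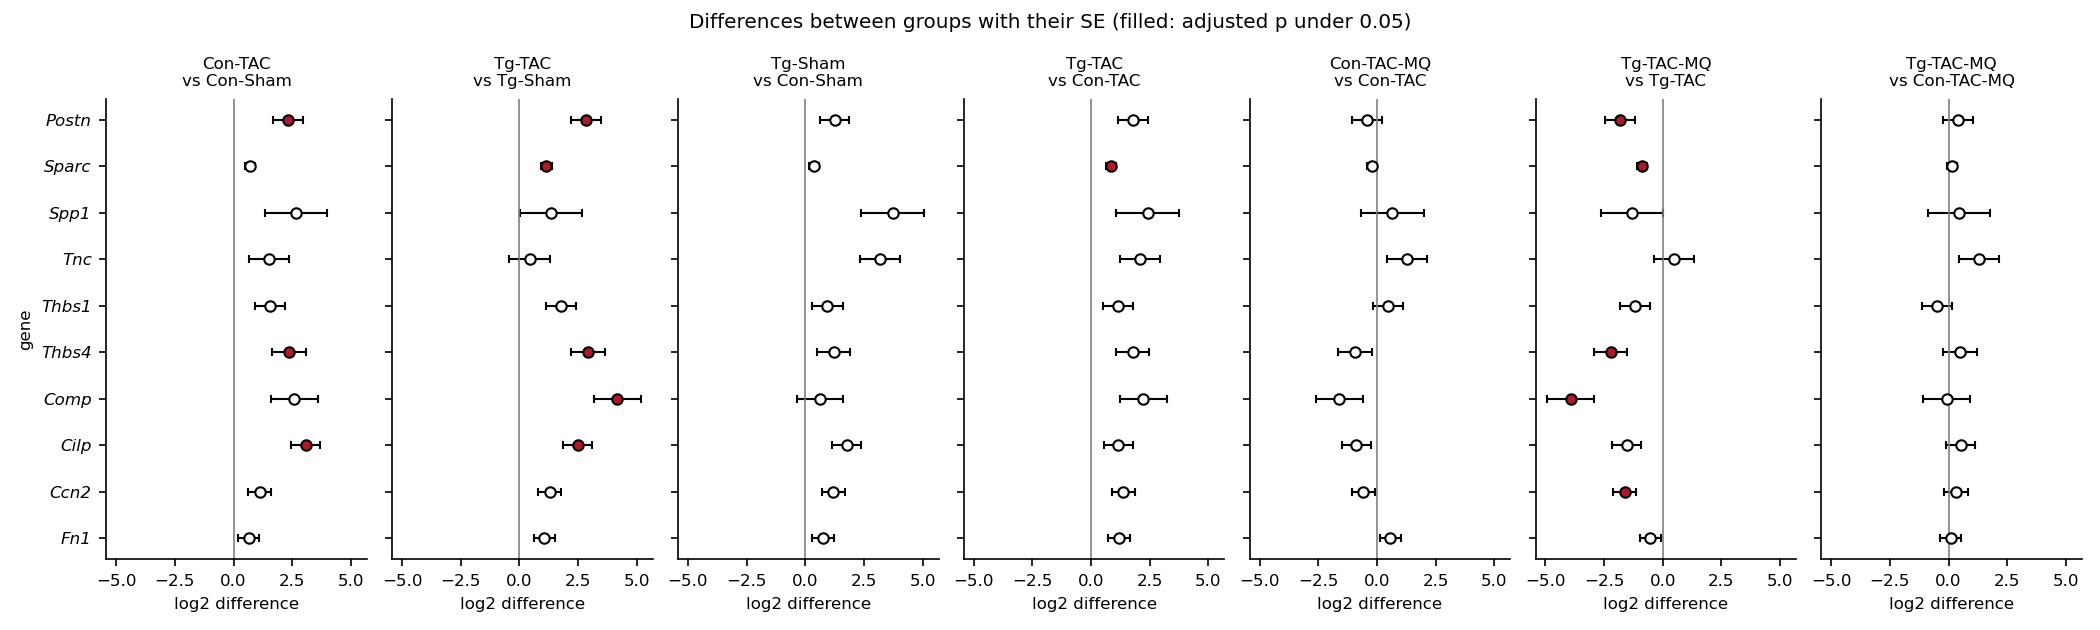
Log2 difference with its SE for the 10 genes in the 7 comparisons of 2 groups, the group named first minus the other, filled where limma's adjusted p is under 0.05. Filled points number 5 and 3 for TAC in cSirt4-Tg and control hearts, 1 for the genotypes after TAC, and 5, all negative, for MitoQ in cSirt4-Tg hearts.

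The median log2 difference of the 10 genes was 1.56 for TAC in cSirt4-Tg hearts (all genes tested -0.01), 1.94 for TAC in control hearts (0.01), 1.20 between sham genotypes (0.00) and 1.57 between genotypes after TAC (0.00). With MitoQ it was -1.41 in cSirt4-Tg hearts and -0.32 in controls, and between the MitoQ-treated genotypes 0.35. Comparisons that share a group, such as both that use Tg-TAC, are not independent of each other.

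The genes also varied together from heart to heart within groups. Over the 45 pairs of the 10 genes, the correlation of deviations from the group means over 36 hearts ran from 0.319 (Comp and Tnc) to 0.943 (Cilp and Postn), with a median of 0.772. Cilp and Thbs4 (0.914) and Thbs4 and Postn (0.912) followed. These are descriptions, since all genes of a heart share its library, and Tg-TAC 6, Con-TAC 6 and Con-TAC-MQ 3 lie far from their groups in most of the 10.

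Over the 36 hearts, groups included, the genes most like each member by Pearson's r were as follows. For Postn they were Fstl1, a secreted glycoprotein (0.98), Col8a1, a short-chain collagen (0.98) and Emp1 (0.98). Among the genes most like Cilp were Col8a1 (0.96) and Mfap4, a microfibril protein (0.96). Thbs4 was most like Serpinf1 (0.96), the proteoglycan gene Bgn (0.96) and Ltbp2 (0.95). Comp was most like Tnmd, a tendon gene (0.94), Mgp (0.93) and Nupr1 (0.92), and Sparc most like Igfbp7 (0.96), Tubb2a (0.95) and Carhsp1 (0.94). Tnc and Spp1 shared Timp1, an inhibitor of metalloproteinases (0.93 with Tnc, 0.89 with Spp1), beside Aldh1a2 (0.92) and Col3a1 (0.91) for Tnc and Fgd3 (0.90) and Myof (0.89) for Spp1. Fn1 was most like Aebp1 (0.95), Myof (0.94) and Shc1 (0.93), Ccn2 like Tmbim1 (0.93), Nupr1 (0.93) and Serpinf1 (0.92), and Thbs1 like Sulf1 (0.92), Actn1 (0.92) and Adamts8 (0.91).

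Other matricellular genes had smaller median differences than the 10 in each comparison of 2 groups. The 10 genes and the lists here and below were chosen with earlier results of these data known. Nothing is therefore drawn from the order of the medians. Of a list of 30, 27 passed the filter (Ccn6, Spock1 and Tnn did not). In Tg-TAC against Tg-Sham 10 rose and 2 fell (44.4% of the 27, against 16.7% of all genes), with a median log2 difference of 0.68, and the smallest adjusted p-values by limma were those of Igfbp7 (log2 1.40, SE 0.25, adjusted p = 0.000956), Mfge8 (log2 0.43, SE 0.09, adjusted p = 0.00283), Ecm1 (log2 0.94, SE 0.21, adjusted p = 0.00406) and Ccn5 (log2 1.77, SE 0.42, adjusted p = 0.00529). The 2 that fell were Thbs2 (-0.63, limma adjusted p = 0.0457), a thrombospondin of the same subgroup as Thbs1, and Tnxb (-0.51, limma adjusted p = 0.048), a tenascin; both are named after their values were seen, because they went against the rest. In Con-TAC against Con-Sham 5 rose, among them Fbln7 (log2 2.37, SE 0.58, adjusted p = 0.0191 by limma) and Igfbp7 (log2 1.01, SE 0.25, adjusted p = 0.0207), and none fell, which is 18.5% of the 27, against 5.3% of all genes. Between sham genotypes limma called 0 of the 27, and 11 had an unadjusted p under 0.05. In Tg-TAC against Con-TAC 5 rose (18.5%, against 6.48% of all genes), led by Ecm1 (log2 0.95, SE 0.21, adjusted p = 0.0128 by limma) and Ccn5, a CCN protein that lacks the C-terminal domain of Ccn2 (log2 1.62, SE 0.42, adjusted p = 0.0245). With MitoQ in cSirt4-Tg hearts 6 fell, led by Igfbp7 (log2 -1.20, SE 0.25, adjusted p = 0.00191 by limma) and Ccn5 (log2 -1.94, SE 0.42, adjusted p = 0.00236), and 1 rose, also named after the fact, Tnxb (log2 0.56, SE 0.18, adjusted p = 0.0302); together these are 25.9% of the 27, against 17.3% of all genes. With MitoQ in control hearts, and between the MitoQ-treated genotypes, limma called 0 of the 27, and 3 and 4 had an unadjusted p under 0.05.

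Receptors of these proteins had smaller median differences still after TAC. Of 26 receptor genes, all tested, 5 rose and 3 fell in Tg-TAC against Tg-Sham (30.8%, against 16.7% of all genes), with a median log2 difference of 0.24. Itgb3, a chain of an integrin that binds Spp1, Postn, Thbs1 and Fn1, had the smallest adjusted p (limma log2 1.41, SE 0.30, adjusted p = 0.00263, 6 of 6 Tg-TAC hearts above the Tg-Sham mean). Itga9, a chain of a Tnc receptor, rose too (limma log2 0.67, SE 0.18, adjusted p = 0.00977), as did the integrin chains Itgb1 (0.43, adjusted p = 0.0115) and Itgb5 (0.60, adjusted p = 0.0129). The 3 that fell, named after their values were seen, were Cacna2d1, a calcium channel subunit that binds thrombospondins (-0.47, limma adjusted p = 0.0159), Itgb6 (-1.13, adjusted p = 0.025) and Cd36, a Thbs1 receptor that also takes up fatty acids (-0.39, adjusted p = 0.0397). In Con-TAC against Con-Sham 2 rose, Itga9 (0.60, limma adjusted p = 0.0414) and the proteoglycan gene Sdc2 (0.39, adjusted p = 0.0482). In Tg-TAC against Con-TAC only Cd36 was called, and it was lower (-0.50, limma adjusted p = 0.0276). With MitoQ in cSirt4-Tg hearts Itgb5 fell (-0.59, limma adjusted p = 0.0123), and Cacna2d1 (0.51, adjusted p = 0.00929) and Itgb6 (1.05, adjusted p = 0.0352) rose. These 2, 1 and 3 calls are 7.69%, 3.85% and 11.5% of the 26, where 5.3%, 6.48% and 17.3% of all genes were called, and nothing is read from shares so near to or under those of all genes. In the other 3 comparisons limma called 0 of the 26; 7 had an unadjusted p under 0.05 between sham genotypes, 5 with MitoQ in controls and 0 between the MitoQ-treated genotypes.

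No marker of fibroblasts, myofibroblasts or macrophages is among the 10 genes. Some fibroblast and myofibroblast markers were called in the same direction as the 10 for TAC and for MitoQ in cSirt4-Tg hearts. Some fibroblast and macrophage markers were called between genotypes, at sham and after TAC, and myofibroblast markers only after TAC. No macrophage marker was called for TAC. The summed normalized count of 12 fibroblast markers was 78658 to 163865 in Tg-TAC, against 74011 to 104591 in Tg-Sham, and 59679 to 102630.0 in Con-TAC, against 53428 to 60844 in Con-Sham. It was 90233 to 107388 in Tg-TAC-MQ and 49059 to 129129 in Con-TAC-MQ. Of those markers 7 of 12 were called higher for TAC in cSirt4-Tg hearts, 3 for TAC in controls, 2 between sham genotypes and 4 between genotypes after TAC, and 4 were lower with MitoQ in cSirt4-Tg hearts. Over all genes, 7.91%, 2.65%, 0.786% and 3.19% were called higher in those 4 comparisons, and 7.44% were called lower with MitoQ. The fibroblast sums of Tg-Sham and Con-Sham did not overlap. Between sham genotypes all 12 fibroblast and all 12 macrophage markers had an unadjusted limma p under 0.05, where 13.1% of all genes did. The sum of 10 myofibroblast markers was 6927 to 29004 in Tg-TAC, against 5655 to 10264 in Tg-Sham, 4546 to 19500.4 in Con-TAC, against 4073 to 8434 in Con-Sham, 7340.4 to 12673 in Tg-TAC-MQ and 5583 to 18739 in Con-TAC-MQ, with Tg-TAC 6 the lowest Tg-TAC heart and Con-TAC 6 the highest Con-TAC heart. Of the 10, 7 were higher for TAC in cSirt4-Tg hearts, 3 for TAC in controls and 3 between genotypes after TAC, and 5 were lower with MitoQ in cSirt4-Tg hearts. Between sham genotypes limma called 0 of the 10 myofibroblast markers, and 3 had an unadjusted p under 0.05. The macrophage sum (12 markers) was 12233 to 18111 in Tg-Sham, against 6789 to 9235 in Con-Sham, without overlap, and 6 of the 12 were called higher there. It was 8799 to 21530.1 in Tg-TAC, against 7904 to 11613 in Con-TAC, where 5 were called higher, and 14094 to 16083 in Tg-TAC-MQ. In Con-TAC-MQ it was 5814 to 21688, with the highest sum in Con-TAC-MQ 3, the heart with the most Spp1. For TAC limma called 0 of the 12 in cSirt4-Tg hearts (median log2 difference 0.13) and 0 in controls (0.39), and 3 had an unadjusted p under 0.05 in each. With MitoQ in cSirt4-Tg hearts 1 was lower. The part of these cells in the differences of the 10 genes was not tested.

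**Figure D5:**
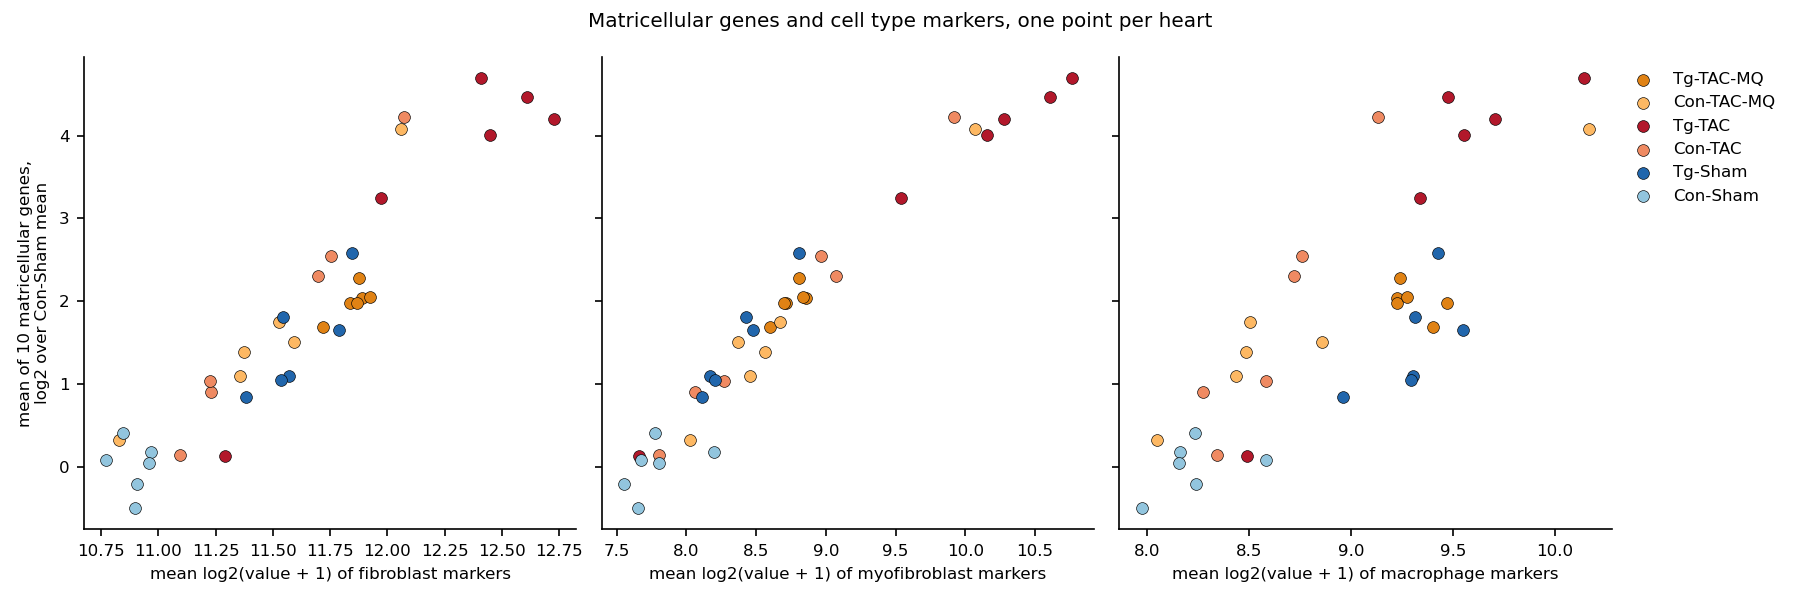
Mean log2 level of the 10 genes over Con-Sham (vertical axis) against the mean log2(value + 1) of fibroblast, myofibroblast and macrophage markers, 1 point per heart, coloured by group. Tg-TAC 6 lies among the Con-Sham hearts in the myofibroblast panel. The Tg-Sham and Tg-TAC-MQ hearts lie to the right of Con-Sham in both the fibroblast and the macrophage panel.

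Some markers of tendon, valve and cartilage were called for TAC and for MitoQ in cSirt4-Tg hearts, as Comp was. Between genotypes after TAC 1 was called higher, where Comp was not called. The summed count of 8 tendon, valve and cartilage markers was 394 to 4459 in Tg-TAC, against 219.9 to 445 in Tg-Sham, and 264 to 1994 in Con-TAC, against 175 to 269 in Con-Sham, where Col2a1, which defines cartilage, was at 0 in all 6 hearts. Of the 5 that passed the filter, 4 rose for TAC in cSirt4-Tg hearts (Scx, Tnmd, Fmod and Sox9), where 7.91% of all genes did. With MitoQ in that genotype 3 fell (Scx, Tnmd and Sox9), where 7.44% of all genes did. The 1 called between genotypes after TAC stands beside 3.19% of all genes called higher there. For TAC in controls limma called 0, and 4 had an unadjusted p under 0.05. Tg-TAC 4 had the highest sum, 4459, as well as the most Comp, and its adipocyte markers summed to 34552, against 5.65 to 295.6 in the other Tg-TAC hearts. How much tissue of these kinds each sample held was not tested. Without that heart, Comp in Tg-TAC against Tg-Sham was still called by limma (log2 3.65, adjusted p = 0.0229).

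Of 10 cardiomyocyte markers, 6 were called lower for TAC in cSirt4-Tg hearts, where 8.77% of all genes were. In control hearts limma called 0 for TAC, and 4 had an unadjusted p under 0.05. The median log2 differences were -0.61 in cSirt4-Tg hearts and -0.34 in controls. With MitoQ in cSirt4-Tg hearts 3 were called higher (median 0.31), where 9.89% of all genes were, and 1 was lower in Tg-TAC than in Con-TAC. Blood markers moved with TAC in control hearts: 5 of 6 erythroid markers were called higher there (median log2 difference 1.18), where 2.65% of all genes were. Their sums were 3737 to 8415 in Con-TAC, against 1448 to 4401 in Con-Sham. Con-TAC 6, the highest Con-TAC heart in the 10 genes, had the lowest of those Con-TAC sums. For TAC in cSirt4-Tg hearts limma called 0 of the 6 erythroid markers, and 1 had an unadjusted p under 0.05. Of 4 thrombocyte markers tested 1, Ppbp, was higher for TAC in controls. Of 3 atrial markers tested 1, Nppa, was higher for TAC in either genotype. Over all genes 2.65% were called higher for TAC in controls and 7.91% in cSirt4-Tg hearts. The part of blood and atrial tissue in the differences of the 10 genes was not tested.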

How the data were processed

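Whole-heart RNA of 36 mice, 6 per group, was sequenced. Per the labels' protocols, RNA came from a Qiagen kit for fibrous tissue and libraries from a strand-specific NEB Ultra II kit. The submitters' processing notes name Trim Galore, STAR and the build mm39. Tool versions, the counter and the normalizing tool are not stated there. The authors deposited 1 table of normalized gene counts, a signal in which each library's reads are divided by 1 factor of its own, as the values themselves show: 100% of values were whole reads to within 0.01 read. The recovered reads gave the depths and served edgeR and DESeq2. Of the rows, 4 had no symbol. Intervals and p-values cover the spread between these libraries only.

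Genes with 10 or more normalized counts in at least 6 libraries (16275) were tested with limma 3.58.1 in R 4.3.3 on log2(value + 1), with a trended, robust prior and 1 mean per group, in 7 comparisons of 2 groups and 2 interactions, and p-values were adjusted by Benjamini and Hochberg over all genes tested. A fold change on that scale understates the change of genes with few counts. The fit was tested on simulated data in which all genes had the same dispersion and no heart stood apart. That test cannot speak to calls that rest on single hearts, and no result is drawn from it. Alternatives were a pseudocount of 0.5 or 10, no filter, TMM factors, an equal total outside the mitochondrial genome, a replicate block, a term for the range of the number in the library name (7 to 14, 20 to 21 or 29 to 31), a fit of the 2 groups compared alone, edgeR 4.0.16, DESeq2 1.42.0 and leaving out each library. Leaving out 4 doubted libraries, and keeping only those named 7 to 14, were added after seeing the data.

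The members and gene lists were chosen with earlier results of these data known. All 10 members are named in every comparison. From each list of related genes up to 4 were named per comparison, by adjusted p among those called, as were the 3 genes most correlated with each member. Others are said to be chosen after their values were seen. Lengths per gene were the union of exons of GENCODE M21. Promoter letters were read from a RefSeq table of another build (GRCm38.p6), so its coordinates are not on the scale of the mm39 gene positions.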

Additional observations from a re-analysis of the deposited data

Results flagged for a closer look

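Each of the 60 combinations of a gene and a group of 6 hearts was searched, on the log2 scale, for a heart whose gap to its nearest neighbour exceeded Dixon's critical share of the group's range at the 95% level, which chance gives in about 1 in 20 groups. There were 10 such values, in 4 hearts. Tg-TAC 6 was far below the rest of its group in 5 genes: Postn (gap 0.732 of the range, 870.6 normalized counts), Sparc (0.740, 9296), Thbs4 (0.739, 133.0), Cilp (0.751, 253.2) and Ccn2 (0.649, 2137). Con-TAC-MQ 3 was far above its group in Spp1 (0.702, 4556), Tnc (0.813, 9287) and Fn1 (0.731, 13427). Tg-Sham 1 was far above its group in Comp (0.684, 715.4), and Con-Sham 1 in Postn (0.666, 898.3).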

How the results depend on the processing

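Depth limits Spp1 most, with 0 reads in 2 Con-Sham hearts. Under the settings that leave out no single library, 932 differences of the 10 genes kept direction and side of the threshold, 68 passed it only there, 20 no longer passed it and 20 changed sign. In each of the following counts of the 10 genes called, limma with all hearts gave 3 for TAC in controls, 5 for TAC in cSirt4-Tg, 0 for the genotypes at sham, 1 for the genotypes after TAC, 0 for MitoQ in controls and 5 for MitoQ in cSirt4-Tg, and the causes of the changes were not tested. For TAC in controls the count was 1 with no filter, 0 with the name number class as a covariate, 6 in edgeR, 8 in DESeq2 and 0 among libraries named 7 to 14. For TAC in cSirt4-Tg it was 2 with only the libraries compared and 8 in both edgeR and DESeq2. For the genotypes at sham it was 1 with the covariate, 7 with only the libraries compared and 2 in DESeq2. For the genotypes after TAC it was 9 with the covariate, 0 with only the libraries compared, 4 in DESeq2, 7 without the 4 doubted libraries and 10 among libraries named 7 to 14. For MitoQ it was 1 in edgeR and 2 in DESeq2 in controls, and 2 in cSirt4-Tg with only the libraries compared. Leaving out 1 library gave 1 to 4 for TAC in controls, 5 to 8 for TAC in cSirt4-Tg, 0 to 9 for the genotypes after TAC and 2 to 7 for MitoQ in cSirt4-Tg.

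Differences that changed sign were not called in the fit that turned them. With the covariate, MitoQ in controls gave Spp1 -4.31, Tnc -0.83, Thbs1 -1.71 and Fn1 -0.91, MitoQ in cSirt4-Tg gave Tnc -2.22, and the TAC interaction gave Cilp 0.063. In edgeR and DESeq2, MitoQ in cSirt4-Tg gave Tnc -0.35 and -0.36, the genotypes on MitoQ gave Spp1 -3.52 and -3.54, Tnc -1.88 and -1.90 and Fn1 -0.39 and -0.41, and the TAC interaction gave Thbs4 -0.10 in both. Without the 4 doubted libraries, Tnc was -0.35 for MitoQ in cSirt4-Tg, Comp 0.36 between genotypes on MitoQ and Cilp 0.19 in the TAC interaction, which was 0.51 among libraries named 7 to 14. Leaving out 1 library gave these ranges: between genotypes on MitoQ, Comp -0.52 to 0.36, Spp1 -0.16 to 1.78 and Fn1 -0.12 to 0.54; for MitoQ in controls, Spp1 -0.67 to 1.65 and Postn -0.82 to 0.014; for MitoQ in cSirt4-Tg, Tnc -0.14 to 0.96; for TAC in cSirt4-Tg, Tnc -0.051 to 1.05; in the TAC interaction, Thbs1 -0.19 to 0.89, Ccn2 -0.10 to 0.74 and Cilp -0.98 to 0.16; and in the MitoQ interaction, Tnc -1.40 to 0.36.

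Libraries with the same replicate number in different groups did not deviate together in a steady way (42 pairs, r -0.483 to 0.311). No pairing by replicate number was therefore used. Other ties between hearts were not tested, and the number in the library names is a separate one. With the replicate block the counts were 2, 5, 0, 1, 0 and 4 in the order above. Over all genes that fit called 739, 2574, 92, 771, 493 and 2659. Over all genes, TAC in controls had 863 calls, and 524 with no filter, 166 with the covariate, 1438 in DESeq2 and 24 among libraries named 7 to 14. The genotypes after TAC had 1054, and 620 with no filter, 3316 with the covariate, 1 with only the libraries compared, 1752 in DESeq2, 2287 without the doubted libraries and 4103 among libraries named 7 to 14. The genotypes at sham had 142, and 241 with the covariate, 879 with only the libraries compared and 321 in DESeq2.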
